A study of Mus musculus with 6 samples.

Results

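Genes of membrane lipid peroxidation and radical trapping, 10 in all, were examined for NUP214 peaks in mouse leukemia stem cells and normal blood stem cells. They were listed by function, as enzymes that build, oxidize or protect membrane lipids in ferroptosis, and they make up 10 of the 21883 protein-coding genes on chromosomes 1 to 19, X and Y. All 10 (Acsl3, Acsl4, Lpcat3, Far1, Scd2, Ptgs2, Cyb5r1, Vkorc1l1, Dhodh and Prdx6) were found in the annotation by symbol.

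Ferroptosis is a form of cell death in which iron drives the oxidation of polyunsaturated fatty acids in membrane phospholipids. Enzymes that activate these fatty acids and insert them into phospholipids, or that feed electrons to oxygen, supply the substrate of the reaction. Monounsaturated fatty acids dilute that substrate, peroxidases reduce the lipid hydroperoxides formed, and reduced quinones and vitamin K trap the radicals that carry the chain on. The study's title ties NUP214, a nucleoporin of the cytoplasmic face of the nuclear pore, to ferroptosis in leukemia stem cells, which is the question behind looking at these genes.

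NUP214 was profiled by CUT&Tag, in which an antibody tethers a transposase that cuts and tags nearby DNA. Bone marrow cells of 3 groups gave 2 libraries each. Control leukemia stem cells (control LSCs) came from Nup214fl/+ mice with MLL-AF9 leukemia, which is driven by a fusion oncogene, and were sorted as Lin-, Sca-1-, c-Kit+, CD16/32+ and CD34+ cells. Nup214-HET LSCs were gated the same way from leukemic Nup214fl/+,Tie2-Cre mice, where Cre acts in blood and endothelial cells alike and so is not limited to the leukemia. The normal blood stem cells (HSCs) were sorted from Nup214fl/+ mice by the LSK gate with CD48- and CD150+, with no leukemia named. Every group thus has Nup214fl/+ in its genotype, Tie2-Cre is named for the Nup214-HET group alone, and both leukemias carry MLL-AF9. The sources used here give neither the age nor the number of animals behind a library, so a p-value speaks only of how these libraries vary, which may be technical variation. No library without the NUP214 antibody was among those used here, so cutting by the transposase alone was not measured.

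The deposited peak lists held 25437 and 10525 peaks for control LSC libraries 1 and 2, 5452 and 4681 for Nup214-HET LSC libraries 1 and 2, and 1045 and 634 for HSC libraries 1 and 2. The sources used here give no read totals. The fold enrichment and p of each peak gave back the number of fragments stacked at its summit, and the weakest peaks of the 6 lists rested on 3 to 6 fragments. Depth implied by the lowest background of each list, set to 1 for control LSC library 2, was 3.72 for the other control LSC library, 1.77 and 1.72 for the Nup214-HET pair and 4.90 and 1.95 for the HSC pair. Peaks do not measure expression, so the sorted cell types were not checked by these data: of 10 blood stem and progenitor markers 5 and 1 had a peak at a gene end in the control LSC libraries, followed by 2 and 1 in the Nup214-HET pair and 0 and 0 in the HSC pair. Of 10 markers of other bone marrow cells the counts were 3 and 1, 0 and 0, and 0 and 0. Among all protein-coding genes the shares were 43.3% and 21.9%, 11.5% and 9.49%, and 1.04% and 0.0868%, so both marker lists lay near or below the background in control LSCs. Of the blood stem and progenitor markers, Kit and Cd34 had a gene-end peak in control LSC library 1 alone and Runx1 in both control LSC libraries. Meis1 had one in library 1 of both LSC groups, and Spi1 in control LSC library 1 and both Nup214-HET LSC libraries. Ptprc, Hoxa9, Fcgr3, Slamf1 and Mecom had none in any list. Nup214 itself had a gene-end peak in control LSC library 1 alone, which says nothing of its dose.

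Promoter sequences were available for 7 of the 10 genes and are credited to RefSeq (GRCm38.p6, the build of mm10). Each runs from 250 bases before to 50 bases after an annotated start, 5′ to 3′ on the gene's own strand. Those of 4 genes are shown, because they span the range of the results below: Vkorc1l1, with a peak in 5 lists (chr5:129941859-129942158, plus strand), Cyb5r1, in all 4 LSC lists (chr1:134405531-134405830, plus strand), Lpcat3, in 3 lists (chr6:124662854-124663153, plus strand), and Far1, in the control LSC lists alone (chr7:113513584-113513883, plus strand). Capitals mark matches, on either strand, to 8 motifs: the GC box GGGCGG, the CCAAT box CCAAT, the ETS core CCGGAA, the E-box CACGTG, the cyclic AMP response element TGACGTCA, an NRF1 half-site GCATGCGC, the antioxidant response element core TGACNNNGC and the TATA box TATAAA.
Vkorc1l1: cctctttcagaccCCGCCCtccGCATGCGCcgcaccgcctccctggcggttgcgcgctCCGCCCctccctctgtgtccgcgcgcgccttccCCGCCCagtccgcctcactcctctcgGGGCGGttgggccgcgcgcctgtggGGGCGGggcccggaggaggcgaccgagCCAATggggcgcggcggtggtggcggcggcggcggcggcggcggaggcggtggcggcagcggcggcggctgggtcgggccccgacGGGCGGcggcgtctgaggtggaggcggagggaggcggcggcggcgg
Cyb5r1: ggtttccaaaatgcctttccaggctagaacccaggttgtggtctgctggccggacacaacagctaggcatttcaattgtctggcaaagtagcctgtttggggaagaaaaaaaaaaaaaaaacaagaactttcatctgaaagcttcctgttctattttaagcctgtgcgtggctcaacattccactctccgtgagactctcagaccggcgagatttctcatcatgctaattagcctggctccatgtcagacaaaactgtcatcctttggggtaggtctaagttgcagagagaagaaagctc
Lpcat3: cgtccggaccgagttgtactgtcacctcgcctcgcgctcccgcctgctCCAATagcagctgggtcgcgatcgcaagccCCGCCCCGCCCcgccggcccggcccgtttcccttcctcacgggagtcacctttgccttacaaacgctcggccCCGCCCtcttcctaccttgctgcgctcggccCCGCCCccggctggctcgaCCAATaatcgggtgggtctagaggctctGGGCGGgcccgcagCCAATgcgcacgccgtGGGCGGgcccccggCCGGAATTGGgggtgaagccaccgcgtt
Far1: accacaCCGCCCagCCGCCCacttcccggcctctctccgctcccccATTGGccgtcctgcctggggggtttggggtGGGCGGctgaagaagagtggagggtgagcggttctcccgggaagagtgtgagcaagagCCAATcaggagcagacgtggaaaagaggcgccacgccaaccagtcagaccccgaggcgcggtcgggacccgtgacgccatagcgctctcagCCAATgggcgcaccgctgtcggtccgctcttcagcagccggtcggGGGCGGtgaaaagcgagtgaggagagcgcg

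The promoters differed in base composition as well as in motifs. Vkorc1l1 was the richest in G and C of the 7, at 81.67% with 50 CpG dinucleotides, and Cyb5r1 the poorest, at 45.67% with 5. The median of the 7 was 71.0% with 33 CpG, against 56.33% and 13 over 21262 promoters of protein-coding genes. The GC box was found in 6 of the 7, against 46.2% of the protein-coding promoters and 35.7% of all 32851 in the table, with 6 matches each in Vkorc1l1 and Lpcat3, 5 in Acsl3 and 4 in Far1. The CCAAT box was found in 4 of the 7 (38.2% of protein-coding promoters), with 4 matches in Lpcat3 and 3 in Far1. The ETS core was found in Acsl4 and Lpcat3 (18.7%), and in Lpcat3 it shares a base with an inverted CCAAT box, printed as 1 run of capitals. The E-box was found in Ptgs2 (7.84%), and the NRF1 half-site in Vkorc1l1 (3.51%). The antioxidant response element core, the cyclic AMP response element and the TATA box were in none of the 7, against 13.0%, 2.23% and 12.6% of protein-coding promoters. No motif match falls in the Cyb5r1 window, so its line above has no capitals although a peak touched it in 4 lists.

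NUP214 peaks lay at the ends of all 10 genes in control LSC library 1 and of 7 in library 2, while Nup214-HET LSCs had 3 and 4 and HSCs 1 and 0. A gene-end peak overlaps, by at least 1 bp, the 1 kb on either side of the outermost annotated ends of a gene. The genes with such a peak in Nup214-HET LSCs were Vkorc1l1 and Cyb5r1 in both libraries, Prdx6 in library 1, and Lpcat3 and Scd2 in library 2. Each of these also had one in a control LSC library, while Acsl3, Acsl4, Far1, Ptgs2 and Dhodh had none outside control LSCs. Absence outside control LSCs was common among the 9482 protein-coding genes with a gene-end peak in control LSC library 1. Of these, 4143 had one in that list alone, like Acsl3 and Acsl4. Another 2346 had one in both control LSC lists alone, like Far1, Ptgs2 and Dhodh. The pattern of Lpcat3 and Scd2 was found at 328 genes and that of Prdx6 at 293. Of the 10 genes, Vkorc1l1 alone had a gene-end peak in HSCs.

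**Figure D1:**
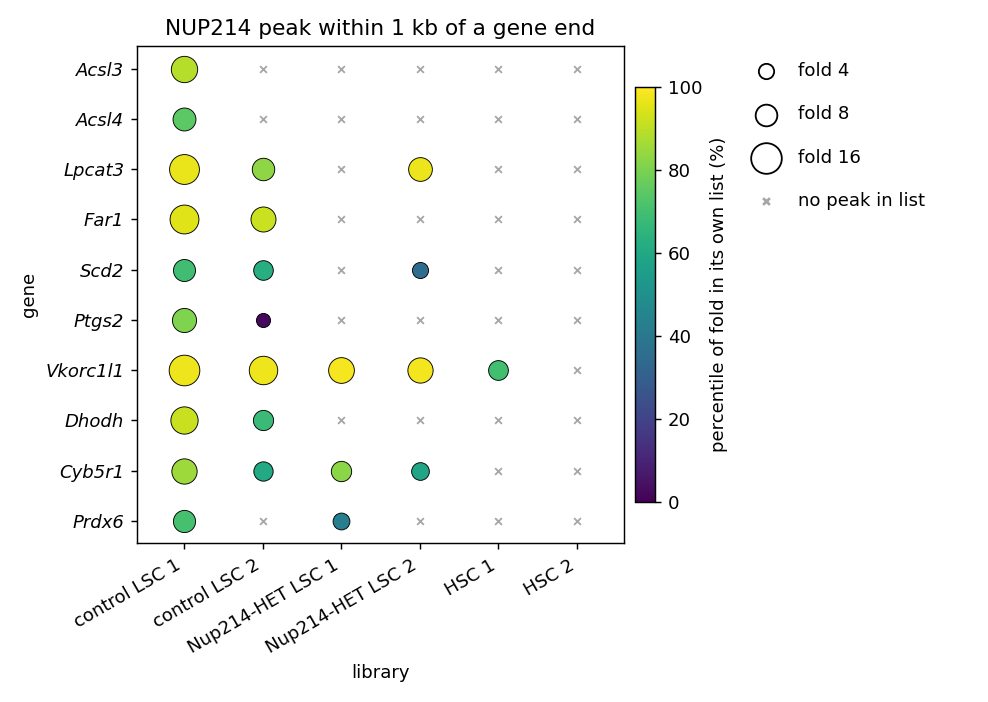
Gene-end peaks of the 10 genes (rows) in the 6 libraries (columns). Circle area is proportional to the authors' fold enrichment, colour is the percentile of that fold within the library's own list in percent, and a cross marks a list with no peak there. Vkorc1l1 fills 5 columns, Cyb5r1 fills 4, and control LSC library 1 is filled in every row.

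All protein-coding genes moved in the same order, so the counts have to be read against them. A gene-end peak was present at 43.3% and 21.9% of protein-coding genes in the control LSC lists, 11.5% and 9.49% in the Nup214-HET LSC lists, and 1.04% and 0.0868% in the HSC lists. In the control LSC and Nup214-HET LSC lists the share of the 10 genes was above that of all genes. The 10 genes were chosen with earlier results of these data known, and this difference in share was not tested. A single gene of the 10 already exceeds the 1.04% of HSC library 1, so that list cannot show an excess. HSC library 2 held 0 of the 10, against 0.0868% of all genes. Control LSCs had a mean count of 8.5 ± 2.12 (SD, n = 2), Nup214-HET LSCs of 3.5 ± 0.707 (SD, n = 2) and HSCs of 0.5 ± 0.707 (SD, n = 2). Control LSCs exceeded Nup214-HET LSCs by 5.0 genes, control LSCs exceeded HSCs by 8.0, and Nup214-HET LSCs exceeded HSCs by 3.0, with no overlap of libraries in any of the 3 comparisons. Each had p = 0.33 in a two-sided exact permutation test of 2 against 2 libraries, before and after Benjamini-Hochberg adjustment over the 3 comparisons, and 0.33 is the smallest p this design allows. With both libraries of a group required, control LSCs had 7 of the 10 genes (21.3% of all genes), Nup214-HET LSCs 2 (6.76%) and HSCs 0 (0.0411%).

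In lists of equal length control LSCs no longer exceeded Nup214-HET LSCs, while HSCs kept the lowest mean count. When only the 634 peaks with the smallest q were taken from each library, the length of the shortest list, there were gene-end peaks at few of the 10 genes: control LSCs had 1 and 1, Nup214-HET LSCs 1 and 2, and HSCs 1 and 0. All protein-coding genes were then at 2.69% and 2.52%, 2.44% and 2.46%, and 0.672% and 0.0868%. Vkorc1l1 was the gene in each of the 5 lists that held one, and Lpcat3 was the other in Nup214-HET LSC library 2. With all genes at 2.69% or less, counts of 0 to 2 among the 10 genes cannot decide whether the groups differ. Implied depth was lowest for control LSC library 2, which held 7 of the 10 genes in the deposited lists, and highest for HSC library 1, which held 1. It is an approximation from the peak lists, and the part of depth in the counts was not tested.

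**Figure D2:**
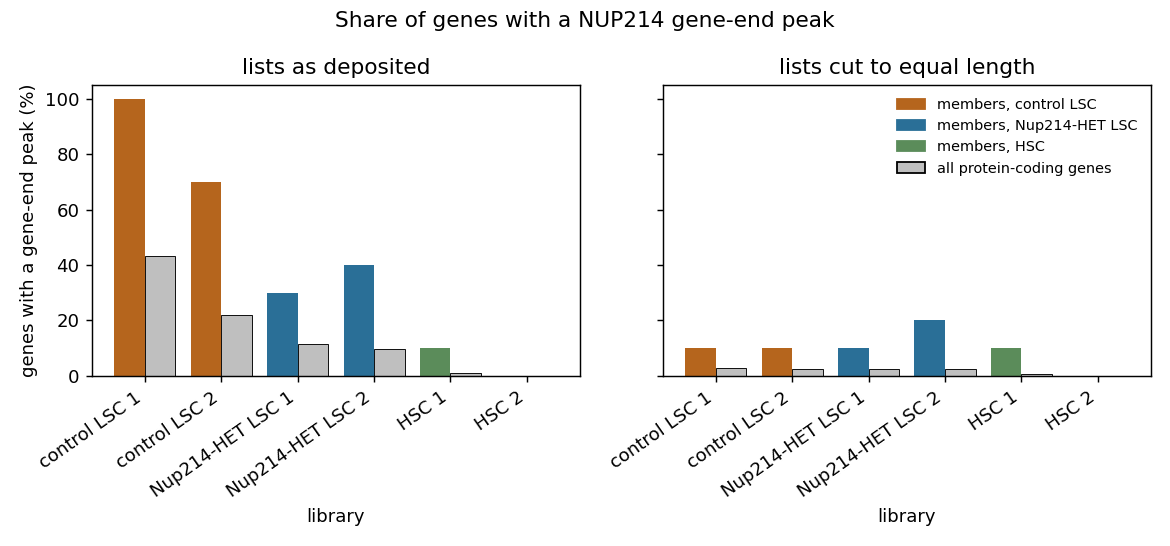
Share of genes (%) with a gene-end peak per library, for the 10 genes (coloured bars) and all 21883 protein-coding genes (grey bars), in the lists as deposited (left) and cut to 634 peaks each (right). In the deposited lists the coloured bars fall from 10 and 7 genes in control LSCs to 1 and 0 in HSCs, and with equal lengths they stand at 0 to 2 genes throughout.

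The 25 gene-end peaks sat at starts wherever the strand was known. Of the 18 peaks at the 7 genes with a promoter in the table, 18 were at the annotated start and 0 at the other end. The summit was within 150 bp of the start in 12. How often gene-end peaks lie at starts was not counted over all protein-coding genes. Each of the 10 genes was occupied at 1 of its 2 ends only. Widths ran from 154 to 764 bp, and summits held from 3 to 153 fragments.

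**Figure D3:**
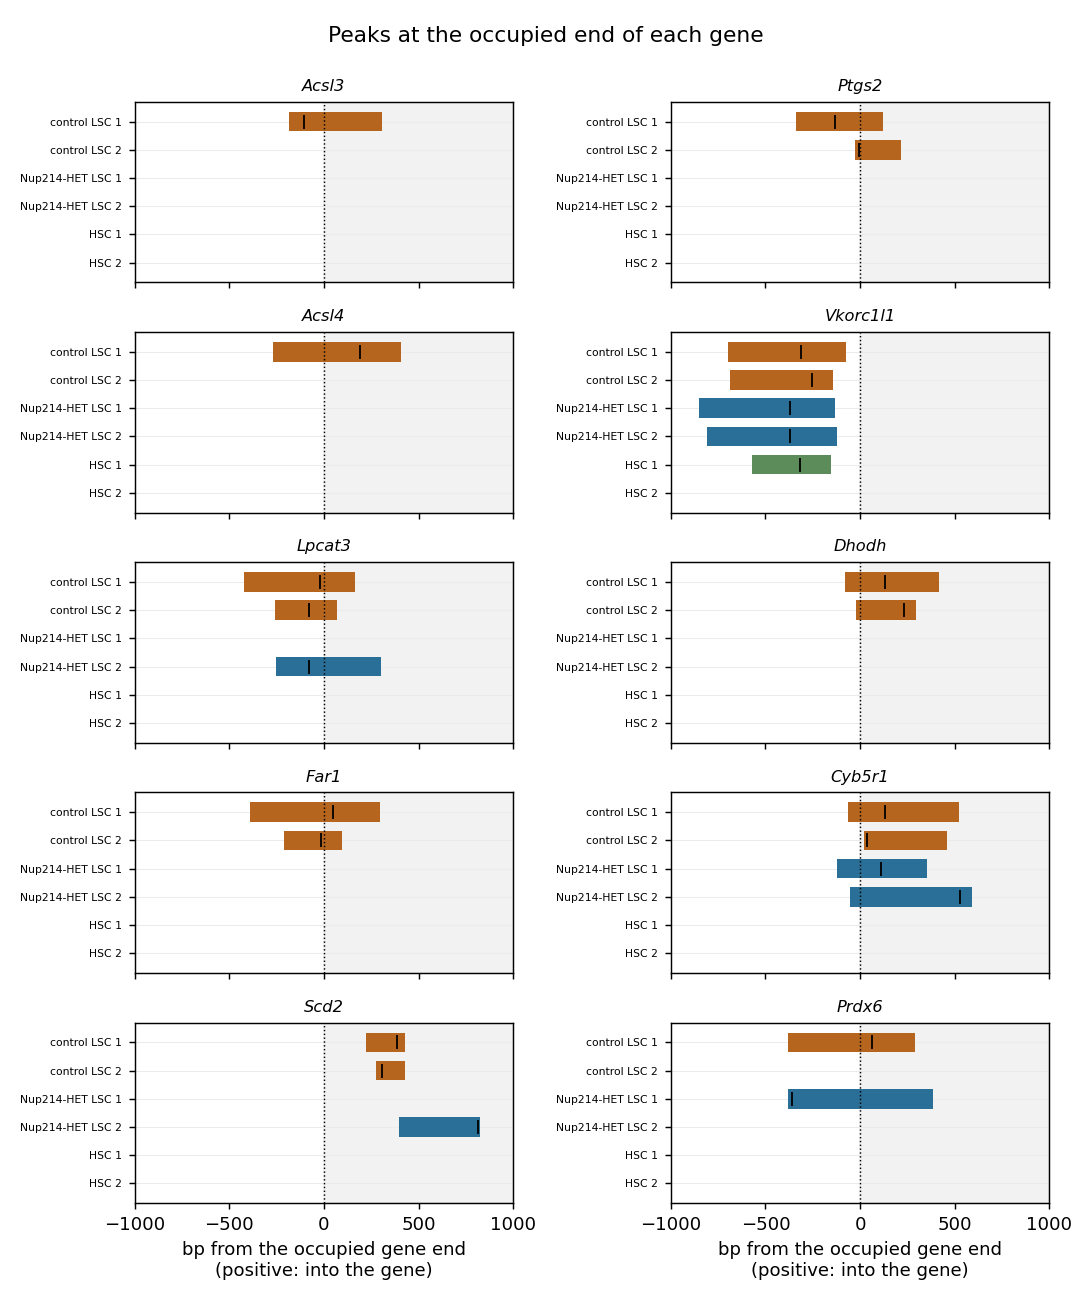
Extent of each gene-end peak (bars) and its summit (black ticks) in bp from the occupied gene end, 1 panel per gene and 1 row per library, with positive values (shaded) inside the gene. The 5 Vkorc1l1 peaks lie outside the gene and end before the start, those of Scd2 lie wholly inside, and the rest cross the end except that of Cyb5r1 in control LSC library 2, which lies inside.

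Of the 3 among the 10 genes whose enzymes load fatty acids into phospholipids, Lpcat3 had a peak in 3 lists and Acsl3 and Acsl4 in 1 each. Lpcat3 (chromosome 6, 124663094 to 124704716) encodes an acyltransferase that inserts polyunsaturated chains into lysophospholipids. Its gene-end peak had a fold enrichment of 15.2 in control LSC library 1, 8.59 in library 2 and 9.58 in Nup214-HET LSC library 2, ranking 848 of 25437, 1790 of 10525 and 146 of 4681 by fold within those lists. These folds are the authors' values, which rank a peak only within its own list. The summits held 62, 14 and 25 fragments and lay at −32, −89 and −89 bp from the start used for the promoter table, so the 3 peaks met at 1 place and all covered the whole 300-base window printed above. Nup214-HET LSC library 1 and both HSC libraries had no peak at either end.

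Acsl4 (chromosome X, 142317993 to 142390802) encodes the acyl-CoA synthetase that activates arachidonic and adrenic acid, and it is a well-known requirement of ferroptosis. Its only gene-end peak, in control LSC library 1, had a fold of 8.96, ranked 6401 of 25437, held 18 fragments and had its summit at −76 bp from the start in the promoter table. Acsl3 (chromosome 1, 78657825 to 78707743), whose enzyme activates monounsaturated fatty acids, had a fold of 11.8 in the same library, rank 2855, with 24 fragments. Utp14b has the same lower-coordinate end as Acsl3, so this peak cannot be assigned to 1 of the 2 genes. Control LSC library 2 held no peak at the ends of Acsl3 or Acsl4. It had 1 peak inside Acsl3, where control LSC library 1 had another at a different place.

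Far1 and Scd2 set which fatty acids and ether lipids a membrane holds. Far1 (chromosome 7, 113513719 to 113571506) encodes the peroxisomal reductase that supplies fatty alcohols for ether lipids. Its peak had folds of 14.2 and 10.7 in the control LSC libraries, ranks 1292 and 834, with 56 and 17 fragments and summits at −68 and −131 bp from the start in the promoter table. Both summits fall in the window printed above, and no other list held a peak at the ends of Far1. Scd2 (chromosome 19, 44293676 to 44306864) encodes a stearoyl-CoA desaturase, which makes monounsaturated fatty acids. Control LSCs gave folds of 8.27 and 6.54, against 4.41 in Nup214-HET LSC library 2, on 28, 10 and 9 fragments. The Nup214-HET peak overlapped each control LSC peak by only 33 bp and its summit lay up to 508 bp away, so the libraries share the end of the gene but not the summit.

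The oxidizing enzymes were represented by Ptgs2 and Cyb5r1. Ptgs2 (chromosome 1, 150100031 to 150108234) encodes cyclooxygenase-2, whose transcript is widely used as a marker of ferroptosis. Its peak had a fold of 9.92 on 17 fragments in control LSC library 1. In control LSC library 2 the fold was 3.41, rank 10257 of 10525, on 3 fragments, which is the lowest summit in that list, and at a −log10 q of at least 2.64 this peak was no longer called. The long noncoding RNA gene Ptgs2os ends within 1 kb of both peaks. Cyb5r1 (chromosome 1, 134405781 to 134411738) encodes a reductase that passes electrons from NAD(P)H to oxygen and so feeds hydrogen peroxide to lipid peroxidation. Control LSCs gave folds of 10.9 and 6.36 and Nup214-HET LSCs of 7.03 and 5.34, ranking 3707, 4182, 945 and 1932, on 22, 8, 13 and 9 fragments. All 4 LSC libraries thus had a peak at the Cyb5r1 start, overlapping pairwise by 335 to 577 bp. Of the summits, 3 lay 38 to 134 bp inside the gene and that of Nup214-HET LSC library 2 lay 527 bp inside. Across all protein-coding genes 1096 had this pattern of all 4 LSC libraries and no HSC library.

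Vkorc1l1 carried the strongest peak of the 10 genes in every list that held one. Vkorc1l1 (chromosome 5, 129942109 to 129986692) encodes an endoplasmic reticulum enzyme that reduces vitamin K, whose reduced form traps lipid radicals. Control LSCs gave folds of 16.002 and 13.8, Nup214-HET LSCs of 11.3 and 10.9, and HSC library 1 of 6.65. By fold it ranked 606 of 25437, 257 of 10525, 75 of 5452, 83 of 4681 and 317 of 1045, which is a percentile of 97.6, 97.6, 98.6, 98.2 and 69.7. The lists differ too much in length for these positions to be compared between libraries. The summits held 153, 45, 76, 63 and 12 fragments.

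The Vkorc1l1 peaks lay outside the gene, just before its start. They overlapped each other by 420 to 678 bp, and their summits lay between −371 and −256 bp from the annotated start and within 115 bp of one another. In the sequence printed above, the peaks covered the first 97 to 175 of the 300 bases. The first 97, which all 5 peaks cover, hold the NRF1 half-site and 3 of the 6 GC boxes, and no summit fell inside the window. HSC library 2 had no peak within 50 kb of the gene. A gene-end peak in exactly these 5 lists was found at 170 protein-coding genes, Vkorc1l1 included. The 5 whose fold percentiles were closest to those of Vkorc1l1 over the 5 lists were Tbl2, Tle4, Ccdc9, Ep400 and Fzr1, with mean absolute differences of 0.653, 0.788, 1.18, 1.69 and 2.09 percentile points.

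Dhodh and Prdx6 completed the protective enzymes. Dhodh (chromosome 8, 109593244 to 109608699) encodes dihydroorotate dehydrogenase, which reduces ubiquinone in the inner mitochondrial membrane. Its peak at the higher-coordinate end had folds of 12.7 and 6.96 for control LSCs, with ranks 2175 and 3378, on 39 and 9 fragments, and no other list held one. Prdx6 (chromosome 1, 161240112 to 161251210) encodes a peroxiredoxin that reduces phospholipid hydroperoxides. It had a fold of 8.37 on 26 fragments in control LSC library 1 and 4.82 on 13 fragments in Nup214-HET LSC library 1, and none in the library numbered 2 of either group. These 2 peaks overlapped by 672 bp, with summits 426 bp apart.

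The strength of the 10 genes' peaks within a list varied from gene to gene. The median percentile of fold was 87.1 in control LSC library 1, where the 10 genes ranged from 69.4 to 97.6, against 75.2 for all genes with a gene-end peak. In control LSC library 2 the 7 genes had a median of 67.9, from 2.21 to 97.6, against 71.0. The 3 and 4 genes of the Nup214-HET LSC libraries had medians of 82.7 and 77.8, against 68.5 and 68.8. They ranged from 42.6 to 98.6 in library 1 and from 35.2 to 98.2 in library 2. The members' median thus lay above that of all genes with a gene-end peak in 3 of these 4 lists. In control LSC library 2 it lay below, and in each list some members were below the median of all such genes. No test was made.

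Peaks inside the genes added little to those at their ends. A peak overlapped the span of the same number of genes or fewer: control LSCs had 10 and 7 (52.2% and 26.5% of all genes), Nup214-HET LSCs 2 and 3 (15.2% and 12.8%), and HSCs 0 and 0 (2.03% and 1.08%). Apart from the gene-end peaks there were 6 such regions, each called in 1 library only, and all in control LSCs. They lay 2 in Acsl3 and 1 each in Acsl4, Lpcat3, Scd2 and Vkorc1l1.

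Within 50 kb of the gene, a peak was found for 10 and 8 of the 10 genes by control LSCs, 6 and 5 by Nup214-HET LSCs, and 1 and 0 by HSCs. The shares of all protein-coding genes were 76.0% and 60.3%, 41.9% and 37.1%, and 7.36% and 3.52%. In control LSC library 1 all 10 genes had a peak by either measure, and no test was made. Beyond the ends and spans, the flanks held 31 separate regions, of which 12 were called in 2 or more libraries and 13 lay at an end of another protein-coding gene. Acsl3, Ptgs2 and Prdx6 had no flanking peak in any list, and HSCs had none at all.

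The flanks of Scd2 held 3 regions called in 2 or more libraries, and those of Lpcat3 held 4. Near Scd2, a region at 44247948 to 44248673, 45003 to 45236 bp before the lower end of Scd2 and at an end of Pkd2l1, was called in all 4 LSC libraries, with folds of 15.4, 8.10, 5.36 and 5.27. Another, at 44284061 to 44284607, 9069 to 9273 bp before Scd2 and at no protein-coding gene end, was called in both control LSC libraries and Nup214-HET LSC library 1, with folds of 14.2, 9.40 and 6.34. The last, at 44266982 to 44267385, was called in both control LSC libraries with folds of 11.02 and 8.91. In both control LSC libraries each of the 3 outranked the peak at Scd2 itself, whose folds were 8.27 and 6.54.

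Near Dhodh the strongest peak lay at ends of Dhx38 and Txnl4b, 27178 to 27305 bp from Dhodh. Control LSCs gave it folds of 21.4 and 12.6, ranks 94 and 400, against 12.7 and 6.96 at the Dhodh end, and it was also called in Nup214-HET LSC library 2 with a fold of 6.08, where Dhodh had no peak. The flank of Lpcat3 held a region at ends of Emg1 and Phb2, called in the same 3 libraries as Lpcat3, with folds of 14.6, 7.61 and 3.91. It also held a region inside Ptpn6, at 124723292 to 124723985, called in both Nup214-HET LSC libraries with folds of 4.67 and 4.84 and in no other list. Among the 31 flanking regions it was the 1 called in both Nup214-HET LSC libraries and in neither control LSC library, and its folds were below the median of those lists, 5.03 in each. Around Vkorc1l1 the control LSC libraries shared flanking regions at ends of Zbed5 and Gusb, and neither Nup214-HET LSC library held any flanking peak there. Around Cyb5r1 the control LSC libraries shared regions at ends of Tmem183a and Adipor1.

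**Figure D4:**
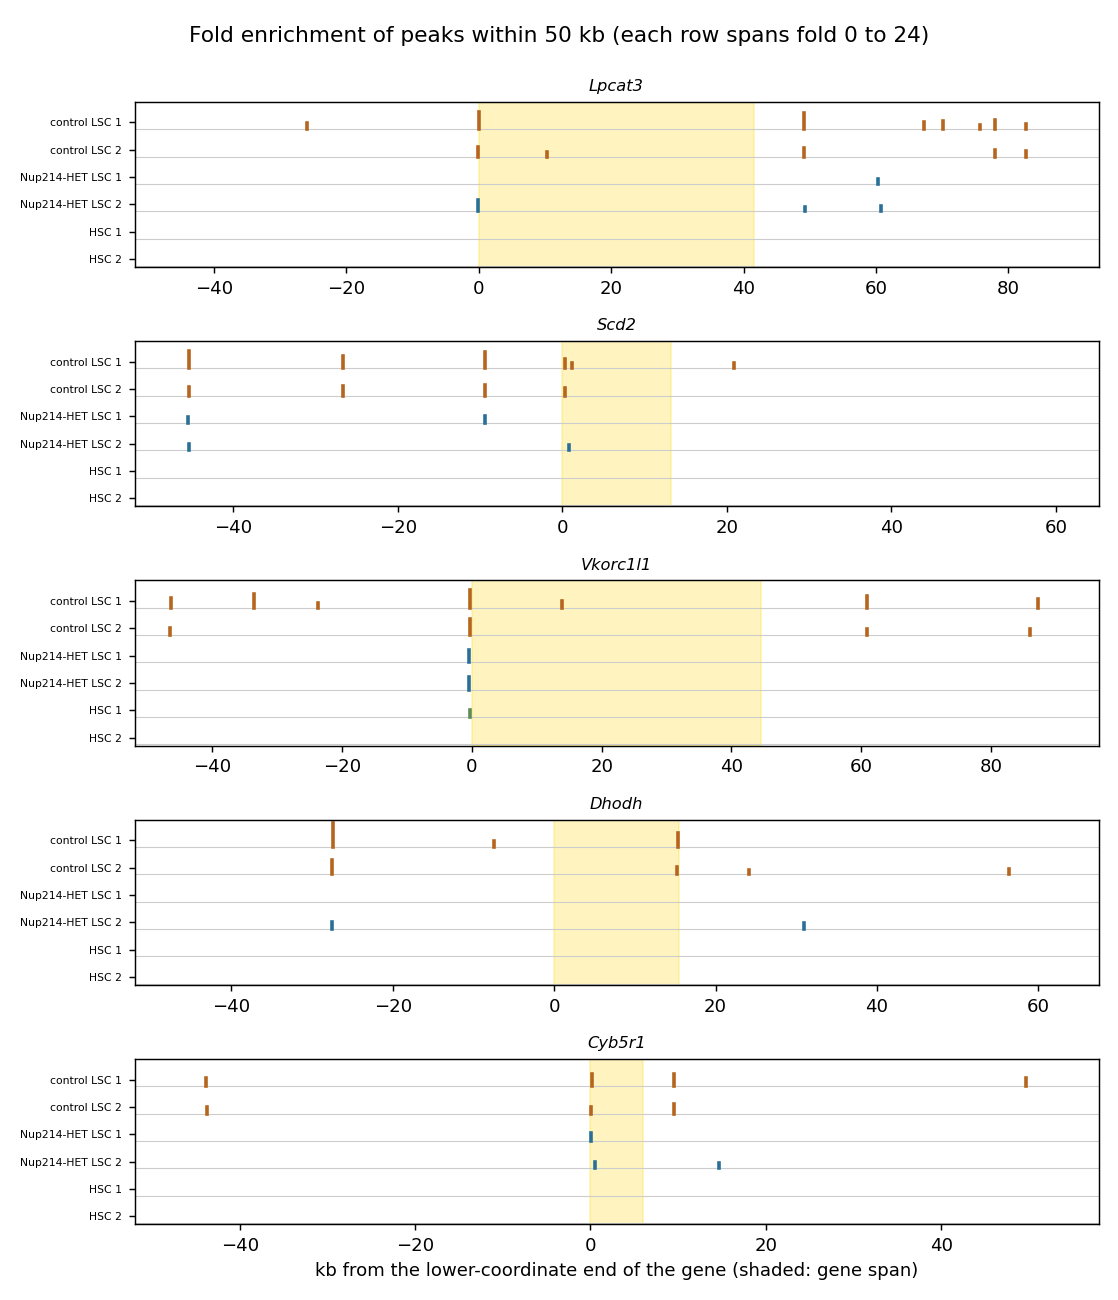
Fold enrichment (height, each row running from 0 to 24) of every peak within 50 kb of 5 of the genes, by distance in kb from the lower-coordinate end of the gene, with the gene span shaded and 1 row per library. The Scd2 flank shows 3 recurrent regions before the gene, and the tallest line of the Dhodh panel, a fold of 21.4, lies outside that gene.

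Other genes of the same pathway, 67 of 68 names matched in 6 lists by function, had shares with a gene-end peak between those of the 10 genes and of all protein-coding genes in the 5 lists where any of the 10 had one. Control LSCs held 42 and 18 of the 67 (62.7% and 26.9%), Nup214-HET LSCs 12 and 8 (17.9% and 11.9%), and HSCs 2 and 0 (2.99% and 0%). None of the 67 had a gene-end peak in a Nup214-HET LSC library without one in a control LSC library. The same count was not made over all protein-coding genes, so it shows nothing particular to the pathway. The differences between the shares of the 67, of the 10 and of all protein-coding genes were not tested.

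Radical trapping by quinones, vitamin K and tetrahydrobiopterin is served by 19 of the genes. Control LSCs had a gene-end peak at 14 and 7 of them (73.7% and 36.8%) and Nup214-HET LSCs at 6 and 3 (31.6% and 15.8%). The shares of all protein-coding genes were 43.3% and 21.9%, and 11.5% and 9.49%. Coq7, a hydroxylase of ubiquinone synthesis, had folds of 14.3, 9.80, 9.49 and 7.80 in the 4 LSC libraries. Qdpr, which regenerates tetrahydrobiopterin, had 17.2, 12.04, 7.25 and 7.37. Pts, of tetrahydrobiopterin synthesis, was in both control LSC libraries and 1 Nup214-HET LSC library, and Nqo1, a quinone reductase, Coq6 and Coq8a were in both control LSC libraries alone. Vkorc1, the paralog of Vkorc1l1, had a peak in control LSC library 1 alone, with a fold of 15.0. Aifm2, the ferroptosis suppressor that reduces ubiquinone at the plasma membrane, had none in any list.

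The acyl-CoA ligase and remodelling list has 11 genes. Control LSCs had 7 and 3 (63.6% and 27.3%), Nup214-HET LSCs 2 and 3 (18.2% and 27.3%), and HSCs 1 and 0. All protein-coding genes were at 43.3% and 21.9%, 11.5% and 9.49%, and 1.04% and 0.0868%. Acsl1, a long-chain acyl-CoA synthetase, had folds of 14.6, 20.2, 11.1 and 8.23 in the 4 LSC libraries, where its relatives Acsl3 and Acsl4 had a peak in 1. Mboat7, an acyltransferase of phosphatidylinositol, had folds of 9.55, 6.80, 5.84 and 5.21, and 6.14 in HSC library 1. Pla2g6, a phospholipase, was in both control LSC libraries and 1 Nup214-HET LSC library. Of the desaturase, elongase and lipid synthesis list, control LSCs had 7 and 3 of 11 (63.6% and 27.3%, against 43.3% and 21.9% of all genes). Nup214-HET LSCs had 0 and 0, where 11.5% and 9.49% of all genes had a peak, so that 0 of 11 is near the background. Elovl5, Fasn and Srebf1 were in both control LSC libraries. Scd1, Scd3 and Scd4, the paralogs of Scd2, had none in any list.

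Of 7 ether lipid and peroxisome genes, control LSCs had 6 and 1 (85.7% and 14.3%) and Nup214-HET LSCs 2 and 1 (28.6% and 14.3%) with a gene-end peak. All protein-coding genes were at 43.3% and 21.9%, and 11.5% and 9.49%, so the list lay below them in control LSC library 2. Pex10, a peroxisomal ubiquitin ligase, was in all 4 LSC libraries. Far2, the paralog of Far1, had none. The list of lipid oxygenases and oxidoreductases had 3 and 0 of 10 genes in control LSCs, against 43.3% and 21.9% of all genes. It had none elsewhere, where the background was 11.5% or less. Its 6 lipoxygenase genes had no gene-end peak in any list. Of 9 genes listed under peroxiredoxins and lipid hydroperoxide reduction, control LSCs had 5 and 4 (55.6% and 44.4%) and Nup214-HET LSCs 2 and 1 (22.2% and 11.1%). The last share is near the 9.49% of all genes in that list. Prdx5 had folds of 11.9, 8.53, 6.64 and 4.81 in the LSC libraries and 5.09 in HSC library 1, while Prdx1 and Prdx3 were in both control LSC libraries alone. Msrb1 was in both control LSC libraries and in Nup214-HET LSC library 1, with a fold of 5.12 there. Gpx4, the main reducer of phospholipid hydroperoxides, had no gene-end peak in any of the 6 lists. Such an absence says only that no peak passed the authors' threshold there.

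**Figure D5:**
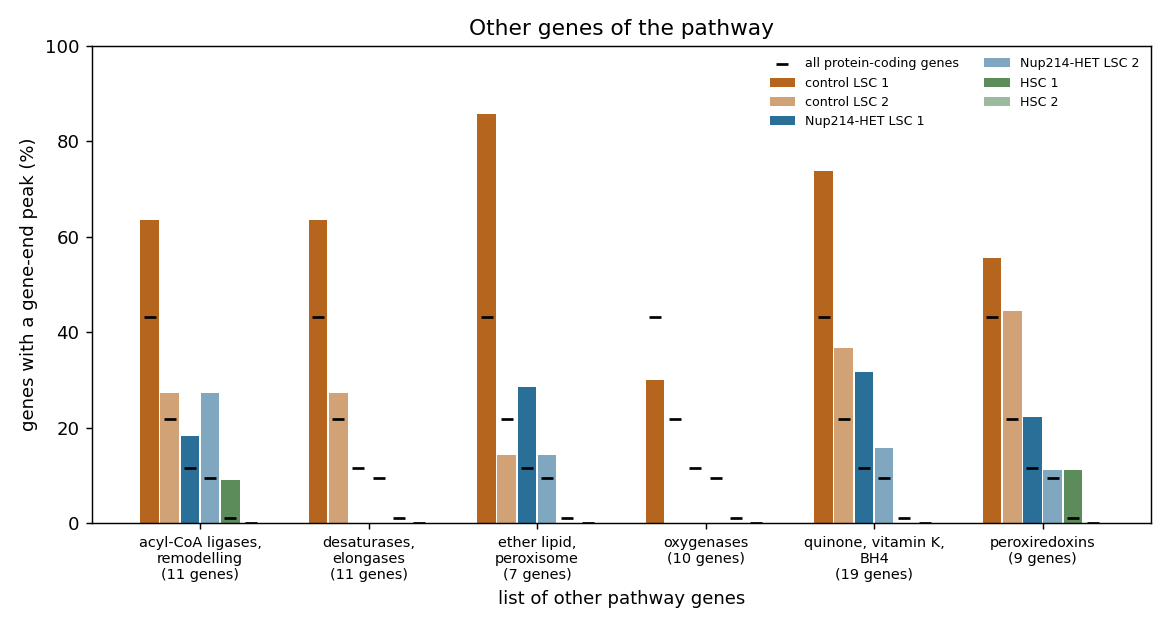
Share of genes (%) with a gene-end peak in 6 lists of other pathway genes, 1 bar per library, with black dashes at the share of all protein-coding genes in that library. Bars of control LSC library 1 stand above their dash in 5 lists. The bar lies below it for the list of lipid oxygenases and oxidoreductases (labelled oxygenases), where 3 of 10 genes had a peak.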

How the data were processed

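Mouse libraries of NUP214 CUT&Tag, 6 in all, were grouped by their titles. Bowtie2 2.2.9, FastQC 0.11.5, ChIPseeker and MACS2 (the last pair with no version) and the mm10 build appear in the submitters' processing notes. How duplicates were handled, how MACS2 was set and whether it had a control is not stated there. Peaks were called by the authors in each library on its own, per the file layout. The authors' deposited lists, in narrowPeak format, give a fold enrichment over local background (a ratio), a −log10 p and −log10 q, and a score, which is about 10 times the −log10 q and was not used. They end near q = 0.05.

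Of the deposited lines, 234 on sequences other than chromosomes 1 to 19, X and Y were left out. Ranks and percentiles of fold were taken within each list. Summit fragments were recovered as the whole number that gives the deposited fold and −log10 p under MACS2's formulas, with 0.0001 as the relative tolerance, which succeeded for 97.2% to 99.5% of peaks of a list. The labels do not state these formulas, which are the tool's and were matched to the values, and they cover counting only. Implied depth is the lowest background over the smallest peak width and orders the libraries only as far as that assumption holds.

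Genes and strands came from RefSeq tables of GRCm38.p6. Overlap counting and summit recovery were tested on simulated data. Counts per library were compared by exact permutation tests (Python 3.11.15, scipy 1.17.1). Alternatives were a stricter q, equal list lengths, windows of 500 bp and 2 kb, the summit in the window, the annotated start alone, each library left out and the replicate block. For the flanks they were a stricter q, equal lengths and 25 kb. Of the pathway names, Peds1 was not matched.

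The 10 genes, the pathway and marker lists and the tests were chosen with earlier results of these data known. All 10 genes are described. Pathway genes are named when both libraries of a group had a gene-end peak, except 1 that is counted but not reported here by name, and Vkorc1, Aifm2, Gpx4 and the paralogs without peaks were named after their values were seen. Genes like Vkorc1l1 were taken as the 5 protein-coding genes with the same libraries and the smallest mean difference in percentile, with predicted genes (symbols beginning Gm or ending Rik) not considered.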

Additional observations from a re-analysis of the deposited data

How the results depend on the processing

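The order of the groups in the number of the 10 genes with a gene-end peak (control LSCs above Nup214-HET LSCs above HSCs) held with a stricter q, windows of 500 bp and 2 kb, the summit in the window, the start alone and each library left out, but not with lists of equal length. Cut to 634 peaks, the difference of control LSCs minus Nup214-HET LSCs turned from 5.0 to −0.5 genes (exact permutation p = 1), that of control LSCs minus HSCs fell to 0.5 (p = 1, exact) and that of Nup214-HET LSCs minus HSCs to 1.0 (exact p = 0.67). So short a list keeps few genes of any kind, and 9 of the 10 genes then had a peak in fewer libraries. The exception was Vkorc1l1, in 5 lists as before. Leaving out 1 library gave differences from 3.5 to 6.5, from 6.5 to 9.5 and from 2.5 to 3.5 genes in the same order. These ranges are values with no test. At a −log10 q of at least 2.64 the gene-end count moved for 1 gene, Ptgs2, from 2 libraries to 1, and the differences were 4.5, 7.5 and 3.0. The annotated start alone, which could be used for 7 genes, gave 3.5, 5.5 and 2.0. The replicate block, which takes the numbers 1 and 2 as pairs, left the differences at 5.0, 8.0 and 3.0 with an exact sign-flip p of 0.5 each, the smallest possible. Nothing in the labels says that the numbers pair the libraries, and over all genes the deviations of same-numbered libraries correlated at 0.00209, −0.0428 and 0.00124. An absent peak says only that none passed the threshold, and the fewest fragments at a called summit differed between libraries. They were 3 in control LSC library 2, 4 in control LSC library 1 and both Nup214-HET LSC libraries, and 6 and 5 in HSCs. The part of depth in absent peaks was not tested.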
